A study of Homo sapiens with 15 samples.

Results

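Erlotinib plus EGF was compared with EGF alone in MDA-MB-468 cells, an established human breast cancer line with a very high level of EGFR, the receptor whose tyrosine kinase erlotinib inhibits. The comparison took the 3 libraries labelled as erlotinib and the 3 labelled as EGF, 6 of the 15 RNA-seq libraries of the series, and it was read across all expressed genes. Cells of both groups were serum starved for 12 h and then kept with 10 ng/mL EGF for 12 h, and those of the erlotinib group also received 15 μM erlotinib. The other drug group of the series, EGF with 10 μM of the peptide cSNX1.3, was used for a direct contrast. Its libraries also entered the fit, and so its filter, scaling and estimate of the spread. No library of cells without EGF was analysed here, so a fall with erlotinib cannot be told apart from a return to the level before EGF. The vehicle given to the EGF group is not given in the sources used here, and every library comes from the 1 cell line.

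EGF binding starts the EGFR kinase, which passes the signal through RAS and ERK, through PI3K and AKT, and through other relays to transcription factors of the FOS, EGR and ETS families. These factors switch on genes of growth, glucose use, lipid synthesis and entry into the cell cycle, together with dual-specificity phosphatases and Sprouty proteins that damp the same relays. In squamous and basal epithelium, EGFR activity is also tied to keratin genes of wound repair. Erlotinib is a quinazoline that cells oxidize with cytochrome P450 enzymes, some of them controlled by the aryl hydrocarbon receptor, a factor that senses foreign aromatic compounds.

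The total count on genes was 24297146 to 28462807 in the EGF libraries and 22915676 to 32736717 in the erlotinib libraries, so a count of 1 was worth 0.0293 to 0.0408 CPM, the count scaled by library size in which levels are given. Among defining markers, EPCAM, an epithelial adhesion protein, was at 331 to 428 CPM in the 6 libraries, PGR had no counts and ESR1 was at 5.31 to 7.30 CPM. Of 23 markers of leukocytes, fibroblasts and endothelium, 8 were high enough to be tested and 3 were called higher and 1 lower. Those higher were the leukocyte markers CD14 and NCAM1 (log2 fold changes 1.33 and 1.36) and 1 endothelial marker (2.38). The 1 that was lower was a fibroblast marker (-2.44). Of the markers not tested, CD3D, MS4A1, FCGR3A and PDPN had no counts and PTPRC had 0 to 3. EGF replicate 2 stood apart, its counts giving a chi-square, divided by its degrees of freedom, of 18.8 and 24.4 against EGF replicates 1 and 3, which differed from each other by 3.58, and the erlotinib libraries differed among themselves by 12.4 to 24.5. Nothing in the labels says that replicates are separate cultures, so p-values measure only the spread between the libraries of the fit, those of cSNX1.3 included.

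A gene was called when its Benjamini-Hochberg adjusted p in edgeR's quasi-likelihood test was under 0.05. Of the 15738 genes tested, 44.0% were called, 22.8% higher with erlotinib and 21.2% lower, and the median log2 fold change was 0.01. Called genes with a log2 fold change over 1 were 6.67% of those tested and those under -1 were 4.66%. The groups did not overlap, meaning that every erlotinib library lay on the same side of every EGF library, in 52.3% of the genes tested. Of 12971 protein-coding genes tested, 22.0% were called higher and 23.8% lower, and of 1905 long non-coding RNAs (lncRNAs) 32.9% and 8.50%. The gene lists below are therefore read beside these shares and not beside 0. Values of each library are given in the order of replicates 1, 2 and 3, and log2 fold changes carry the standard error (SE) of the fit.

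**Figure D1:**
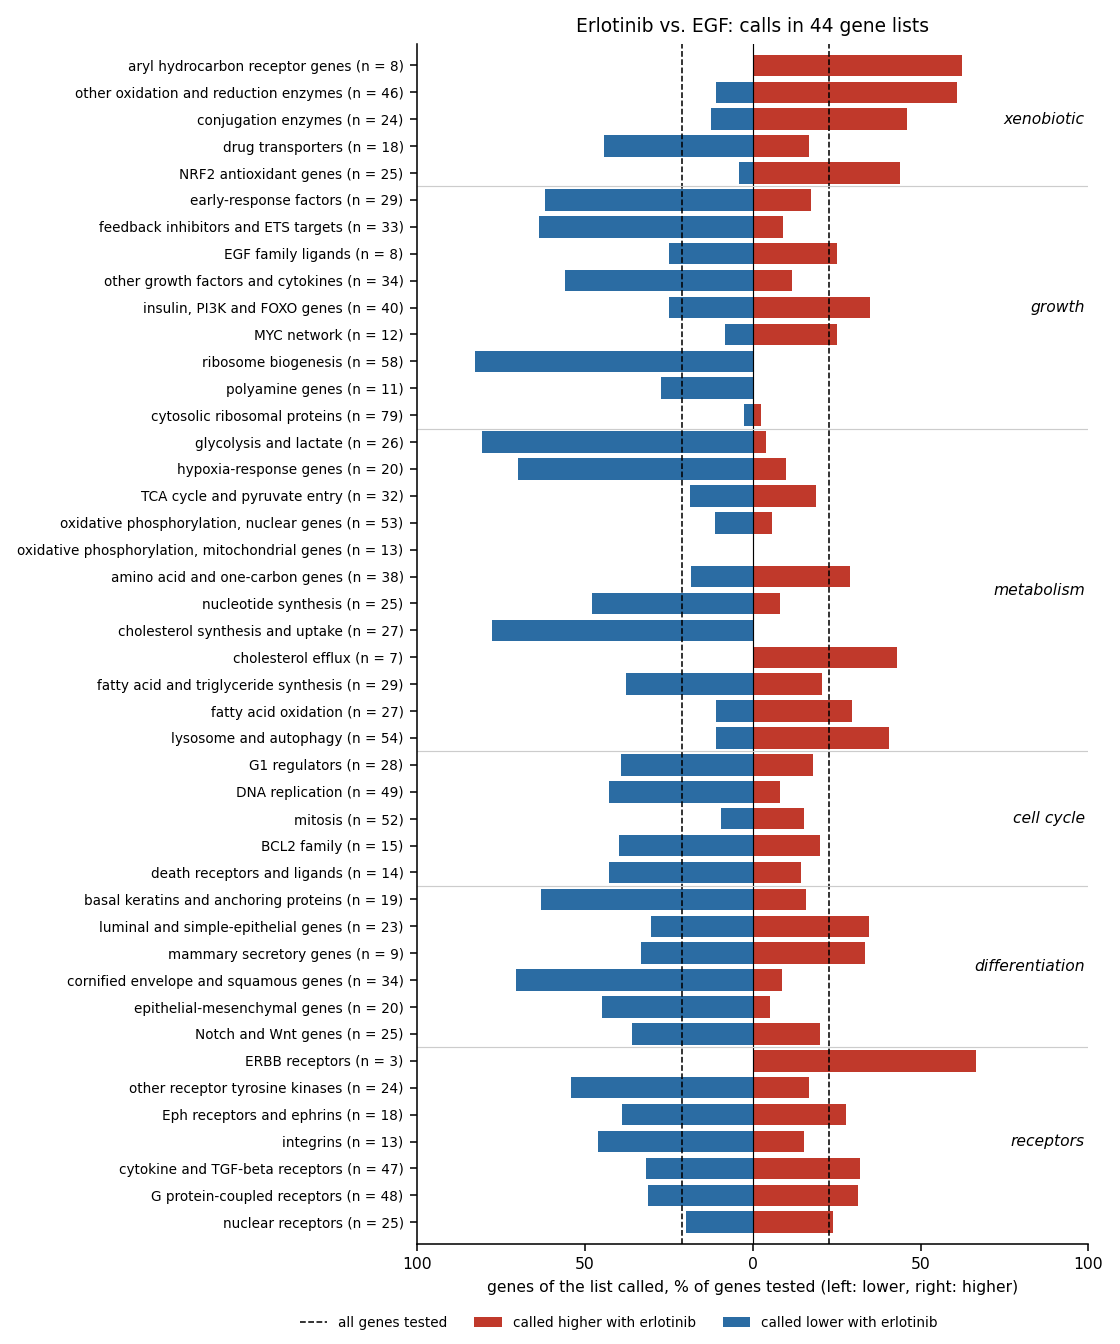
Share of the tested genes of 44 lists, grouped into 6 themes, that were called higher (right, red) or lower (left, blue) with erlotinib, in % of the genes tested, with the number tested in parentheses. The dashed lines mark the shares over all genes tested, 22.8% and 21.2%. Ribosome biogenesis, glycolysis, cholesterol synthesis and the cornified envelope list reach far to the left, and the oxidation and reduction enzymes far to the right.

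The 15 largest rises were taken among called protein-coding genes that averaged 1 CPM or more and whose groups did not overlap. They included enzymes of detoxification and carriers of zinc. CYP1A1, a cytochrome P450 of aromatic compounds, went from 0.449, 0.111 and 0.258 CPM with EGF to 7.601, 9.05 and 7.702 CPM with erlotinib, a log2 fold change of 4.89 ± 0.28 (adjusted p = 2.45e-09). Every erlotinib library lay above every EGF library, as the choice of these genes required. SLC30A2 and SLC39A2, transporters that move zinc, had log2 fold changes of 3.92 ± 0.33 and 3.35 ± 0.196. LBH, a cofactor of transcription in mammary epithelium, was the most abundant of the 15 genes with the largest rises, at 24.7, 20.7 and 21.03 CPM with EGF and 246, 224 and 204 CPM with erlotinib (log2 fold change 3.34 ± 0.11). SELENOP, the plasma carrier of selenium, went from 5.31 ± 0.721 to 48.3 ± 5.004 CPM (SD, n = 3 each) and POU2AF1, a coactivator of POU factors, from 0.534 ± 0.316 to 5.83 ± 1.32 CPM. CYP4Z1, GPR12, RCSD1, PHKG1, TRIM63, CCN5, SCIN, CLGN and ALDH3A1 made up the rest, with log2 fold changes between 2.77 for CLGN and 4.49 for ALDH3A1.

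Several of the largest falls were those of genes that ERK signalling is known to switch on. SPOCD1 went from 5.59, 6.35 and 5.87 CPM with EGF to 0.147, 0.0816 and 0.141 CPM with erlotinib (log2 fold change -5.51 ± 0.25, adjusted p = 1.83e-10). Its groups did not overlap, which the choice of the 15 largest falls also required. FOSL1, a partner of JUN in the AP-1 factor, went from 15.7, 15.2 and 16.97 CPM with EGF to 0.734, 0.734 and 0.774 CPM with erlotinib. LIF, a cytokine of the interleukin 6 family, went from 21.4 ± 3.16 to 1.34 ± 0.174 CPM, and F3, the tissue factor that starts coagulation, from 101 ± 6.598 to 10.1 ± 1.71 CPM. PLAT, the tissue plasminogen activator, and MFSD2A, a lysophospholipid transporter, had log2 fold changes of -3.297 ± 0.23 and -3.33 ± 0.17. The others of the 15 were SPRY4, DUSP6, KRT6A, CXCL8, ETV5, EGR1, KRT75, KRT6C and GLIPR1, with log2 fold changes between -3.51 for GLIPR1 and -4.995 for SPRY4. KRT6A, KRT6B and KRT6C are near-identical, and reads could have been divided among them.

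**Figure D2:**
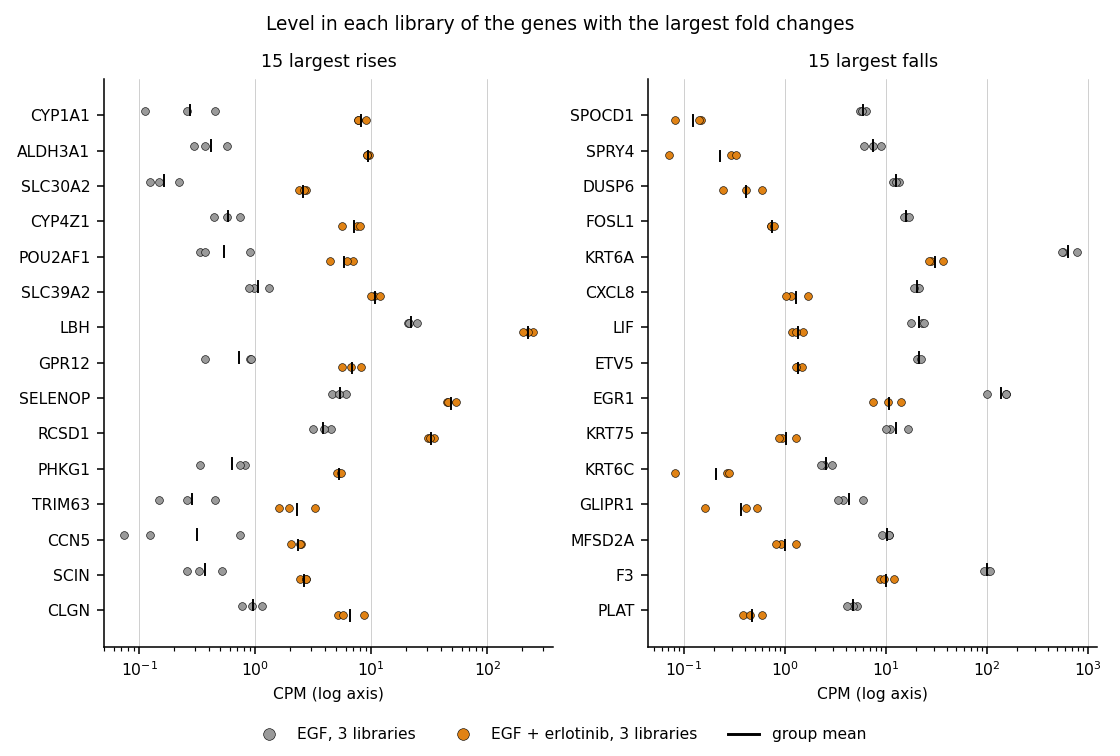
CPM in each library (points, log axis) of the 15 protein-coding genes with the largest rises (left) and the largest falls (right). They were taken among called genes whose mean level was 1 CPM or more and whose groups did not overlap. Black ticks mark the mean of the 3 libraries of each group. The grey EGF points and the orange erlotinib points lie apart in every gene because the choice required it. Levels run from 0.0703 CPM for SPRY4 with erlotinib to 782 CPM for KRT6A with EGF.

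By difference in CPM the leading genes were others, since abundant genes move many counts with a small fold. SLC44A2, a choline transporter, rose from 2137 ± 72.97 to 3428 ± 218 CPM, CD24, a surface sialoglycoprotein, from 939.5 ± 22.3 to 1821 ± 174 CPM and TSC22D3, a glucocorticoid- and FOXO-induced leucine zipper protein, from 195 ± 5.09 to 716 ± 24.4 CPM. PHGDH, which commits glycolytic carbon to serine, and ALDH3B2 had log2 fold changes of 0.51 ± 0.104 and 1.12 ± 0.09. EEF1A1, RPLP0 and CASP14 had log2 fold changes of 0.37 ± 0.14, 0.37 ± 0.13 and 0.36 ± 0.104, but the calls of EEF1A1 and RPLP0 were each lost in 5 of 6 fits that left out a library (adjusted p up to 0.145 and 0.156), and that of CASP14 without erlotinib replicate 2 (adjusted p = 0.0551). The largest falls in CPM were mostly those of keratins, actins and glycolytic enzymes. KRT8, ACTB, FLNA, KRT5 and ACTG1 fell, with log2 fold changes between -1.25 and -0.72, and ENO1, LDHA and SEC61G, a subunit of the channel that carries proteins into the endoplasmic reticulum, had log2 fold changes of -0.87, -1.297 and -0.76. In KRT8, ACTB, KRT5, ENO1, ACTG1 and LDHA the highest library was EGF replicate 2, and all 6 genes stayed called without it.

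EGFR itself, the target of erlotinib, was at 4886, 4197 and 4949.6 CPM with EGF and 4517, 4974 and 4553 CPM with erlotinib. The groups overlapped, and the log2 fold change was 0.00 ± 0.11 (adjusted p = 0.995). Of the other receptors of the family, ERBB2 went from 55.3, 46.5 and 56.4 CPM with EGF to 104, 92.04 and 109 CPM with erlotinib (log2 fold change 0.95 ± 0.13, adjusted p = 3.09e-05) and ERBB3, which signals through PI3K when paired, from 74.7, 65.5 and 75.8 CPM with EGF to 101, 99.1 and 103 CPM with erlotinib (log2 fold change 0.49 ± 0.09, adjusted p = 0.000427). Both rose and neither overlapped between groups. ERBB4 had 0 to 2 counts per library and was not tested. Among the ligands, AREG and HBEGF fell (log2 fold changes -2.14 and -1.92) and BTC rose by 0.96, while TGFA (log2 fold change -0.08 ± 0.09) and EREG (-1.37 ± 0.59) were not called. The EGF gene had a log2 fold change of 0.48 ± 0.18, a call that was lost in 4 of 6 fits without a library (adjusted p up to 0.202).

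Early-response factors, which carry the signal of growth factor receptors to DNA, were mostly lower after 12 h: 18 of 29 tested were called lower and 5 higher, and the median log2 fold change was -0.77. EGR1 went from 155, 99.8 and 157 CPM with EGF to 7.45, 10.4 and 14.03 CPM with erlotinib and FOS from 52.7, 31.97 and 46.4 CPM with EGF to 3.58, 4.2002 and 6.72 CPM with erlotinib, with no overlap between groups. JUN, JUNB and MYC fell (log2 fold changes -1.13, -0.77 and -0.83). EGR4 had 19, 28 and 21 counts with EGF and none with erlotinib, which put it at least 8.20-fold lower when 3 counts in each erlotinib library were taken as the floor. The members that rose were NR4A2 (0.89 ± 0.15), KLF5 (0.45 ± 0.09), KLF10 (0.44 ± 0.12), FOSL2 (0.33 ± 0.08) and ATF3 (0.32 ± 0.102). KLF10 lost its call without erlotinib replicate 2 (adjusted p = 0.0502).

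Feedback inhibitors of ERK signalling and the ETS factors it induces had 21 of 33 tested members called lower and 3 higher, with a median of -0.85. ETV5 went from 20.9, 20.4 and 22.5 CPM with EGF to 1.32, 1.47 and 1.301 CPM with erlotinib and ETV1 from 7.102, 6.39 and 6.09 CPM with EGF to 0.499, 1.02 and 0.739 CPM with erlotinib, and ETV4 fell by 3.08 on the log2 scale. These are the PEA3 group of ETS factors, and none of the 3 overlapped between groups. The nuclear phosphatase DUSP4 fell by 3.11, as did DUSP5 (-1.88), the adaptors SPRED1 and SPRED2 (-1.895 and -2.28) and ERRFI1, an inhibitor that binds the EGFR kinase itself (-2.202). DUSP16, a phosphatase of the JNK and p38 kinases, and the factor ETS2 rose by 0.47 and 0.39, and LRIG1, a negative regulator of ERBB receptors, had a log2 fold change of 0.36 ± 0.12 that was not called in 3 of 6 fits without a library.

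Secreted growth factors and cytokines fell more often than they rose, 19 against 4 of 34 tested (median -0.46). CXCL8, an attractant of neutrophils, went from 20.6, 21.5 and 19.1 CPM with EGF to 1.14, 1.71 and 1.02 CPM with erlotinib and INHBA, which forms activin A, from 32.4, 28.7 and 33.5 CPM with EGF to 8.22, 9.42 and 8.34 CPM with erlotinib. CLCF1 and VEGFA fell (log2 fold changes -1.995 and -1.13). CCL28, a chemokine of mucosal epithelium, rose from 20.7, 19.6 and 24.4 CPM with EGF to 41.1, 53.4 and 48.1 CPM with erlotinib, and WNT5A and FGF1 rose by 1.28 and 1.298. Genes around insulin, PI3K and FOXO split, 14 higher and 10 lower of 40. Among known targets of FOXO factors, which AKT keeps out of the nucleus, TRIM63 (log2 fold change 2.99 ± 0.51), BCL6 (0.79 ± 0.09) and KLHL24 (0.73 ± 0.13) rose, as did PIK3IP1 (1.63 ± 0.104), an inhibitor of PI3K, and PIK3R1 (0.93 ± 0.097), its regulatory subunit. FOXO1 (-0.02 ± 0.14) and FOXO3 (-0.05 ± 0.09) were not called, and IRS1, an adaptor of the insulin receptor, and INPP5D, a phosphatase of PI3K lipids, fell (log2 fold changes -1.09 and -2.36). IGFBP5, a binding protein of insulin-like growth factors, rose from 8.68 ± 0.987 to 29.4 ± 1.03 CPM.

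Ribosome biogenesis, the nucleolar assembly line of the ribosome, was the list with the highest share of lower calls: 48 of 58 tested genes were lower and none higher with edgeR, with 0 members higher at an unadjusted p under 0.05 and 0 by DESeq2, and the median was -0.53. MYBBP1A went from 50.8, 47.1 and 54.02 CPM with EGF to 15.2, 14.6 and 18.7 CPM with erlotinib and BOP1, which processes the rRNA of the large subunit, from 63.8, 79.9 and 64.4 CPM with EGF to 36.1, 25.7 and 28.3 CPM with erlotinib, and neither overlapped between groups. NCL (nucleolin), FBL (fibrillarin) and POLR1A, the largest subunit of RNA polymerase I, fell (log2 fold changes -0.86, -0.56 and -0.71). NPM1 (-0.201 ± 0.11) and UBTF (-0.05 ± 0.12) were not called. Of the cytosolic ribosomal proteins, 2 of 79 were called higher and 2 lower, with a median of -0.03, and 10 were called lower without erlotinib replicate 1 and 5 higher without EGF replicate 2. Their summed level was 63993 to 80730 CPM with EGF and 66517 to 79488 CPM with erlotinib. In the MYC network, MAX, the partner of MYC, was not called (0.13 ± 0.098), while the antagonists MXD4, MXD3 and MXI1 rose by 0.79, 0.61 and 0.49 and MXD1 fell by 1.03. Of the polyamine genes, SRM (spermidine synthase), AMD1 and SMS fell (log2 fold changes -1.01, -0.52 and -0.46) and ODC1, an early target of MYC, was not called (0.05 ± 0.12).

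**Figure D3:**
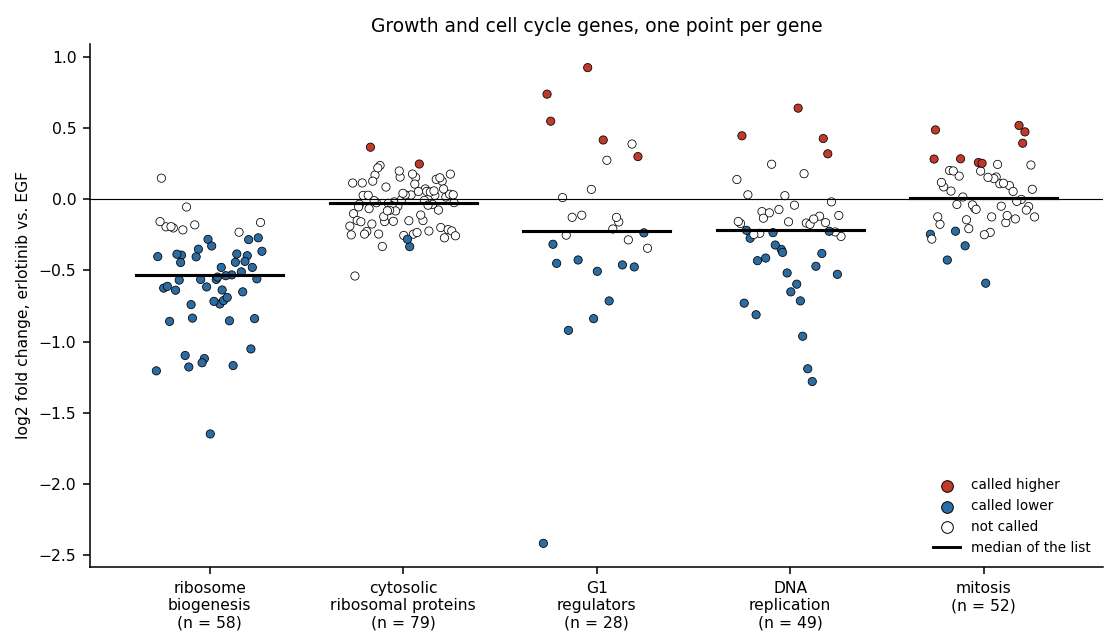
Log2 fold change, erlotinib vs. EGF, of every tested gene in 5 lists of growth and the cell cycle, with 1 point per gene, red for genes called higher, blue for lower and white for those not called, and a black line at the median of each list. The ribosome biogenesis genes lie around -0.53, the ribosomal proteins and mitosis genes around 0, and the lowest point among the G1 regulators is CCND1.

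Most genes of glycolysis fell. Of 26 tested genes of glycolysis and lactate transport, 21 were lower and 1 higher, and their median log2 fold change was -0.73. At glucose entry and trapping, SLC2A1 (GLUT1) fell by 0.5004, and HK2 and HK1 had log2 fold changes of -0.43 and -0.28. SLC2A3 (GLUT3) went from 0.8398 ± 0.0446 to 0.191 ± 0.0973 CPM, the lowest log2 fold change of the list (-2.15 ± 0.44). Among the phosphofructokinases, the platelet form PFKP went from 467, 522 and 454 CPM with EGF to 155, 133 and 138 CPM with erlotinib, against log2 fold changes of -0.37 and -0.27 for the liver and muscle forms PFKL and PFKM. PFKFB3 and PFKFB4, which make the activator of phosphofructokinase, fell (log2 fold changes -1.17 and -1.65). In the lower part of the pathway PGK1, PGAM1, ENO1, PKM and LDHA fell (log2 fold changes -1.14, -1.08, -0.87, -0.87 and -1.297), and ENO2 went from 23.2, 18.8 and 23.7 CPM with EGF to 4.72, 5.18 and 4.96 CPM with erlotinib. GAPDH (-0.27 ± 0.12) and LDHB (-0.18 ± 0.21) were not called. SLC16A3, which exports lactate, went from 44.3, 55.7 and 45.4 CPM with EGF to 19.9, 16.03 and 16.1 CPM with erlotinib. MPC2, a subunit of the carrier that takes pyruvate into mitochondria, was higher (0.38 ± 0.11), a call that 2 of 6 fits without a library lost. For ALDOA, 54.2% of exon bases were shared with another gene.

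Several genes of the hypoxia response, many of them targets of HIF1A, were lower as well: 14 of 20 tested were lower and 2 higher (median -0.81), with 1 higher when any library other than EGF replicate 2 was left out. CA9, a carbonic anhydrase at the cell surface, went from 206, 235 and 208 CPM with EGF to 65.1, 51.1 and 60.8 CPM with erlotinib, and BNIP3, a mitochondrial receptor of autophagy, from 98.7, 119.9 and 111 CPM with EGF to 39.999, 38.8 and 43.4 CPM with erlotinib. PDK1, which shuts pyruvate dehydrogenase, fell by 1.03 on the log2 scale, and CA12 rose by 1.07. HIF1A was not called (0.05 ± 0.099). Pyruvate entry and the citric acid cycle had 6 genes higher and 6 lower of 32, close to the shares of all genes. PDK2 and PDK4, which also shut pyruvate dehydrogenase, rose by 0.97 and 0.98, and PDP1, which opens it, fell by 0.71. Of 53 nuclear genes of oxidative phosphorylation 3 were higher and 6 lower (5 higher without EGF replicate 2, 10 lower without erlotinib replicate 1 and 3 lower without EGF replicate 2, erlotinib replicate 2 or erlotinib replicate 3), and of the 13 mitochondrial ones none was called in edgeR in either direction, with 1 lower and 0 higher at an unadjusted p under 0.05 and 1 lower by DESeq2. Without EGF replicate 2, 3 of the mitochondrial genes were called lower, and without erlotinib replicate 2, 2 were. NDUFB5, a subunit of complex I, went from 19.3 ± 1.52 to 35.3 ± 3.28 CPM and CYCS, cytochrome c, from 537 ± 75.1 to 266 ± 35.3 CPM.

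Genes of cholesterol synthesis were lower at most steps. Of 27 tested genes of synthesis and uptake, 21 were lower and none higher by edgeR (median -0.55), with 2 higher at an unadjusted p under 0.05 and 0 by DESeq2. Without EGF replicate 2, 1 gene was called higher, and without erlotinib replicate 2, 2 were. HMGCS1, which makes the precursor of mevalonate, went from 802, 785 and 807 CPM with EGF to 259, 334 and 285 CPM with erlotinib. The later steps MVK, MVD, IDI1 and FDPS had log2 fold changes of -0.87, -0.79, -0.601 and -0.35. In the sterol branch SQLE, MSMO1, NSDHL and DHCR7 fell (log2 fold changes -0.78, -0.86, -1.18 and -0.63). SREBF2, the factor that drives this pathway, was not called (-0.104 ± 0.095), nor was its escort SCAP (0.24 ± 0.097). Among genes induced by sterols, MYLIP, a ubiquitin ligase, went from 13.7, 11.8 and 12.6 CPM with EGF to 21.6, 26.7 and 28.2 CPM with erlotinib. The efflux carrier ABCG1 rose by 1.13, while ABCA1 (-0.73 ± 0.35) was not called.

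**Figure D4:**
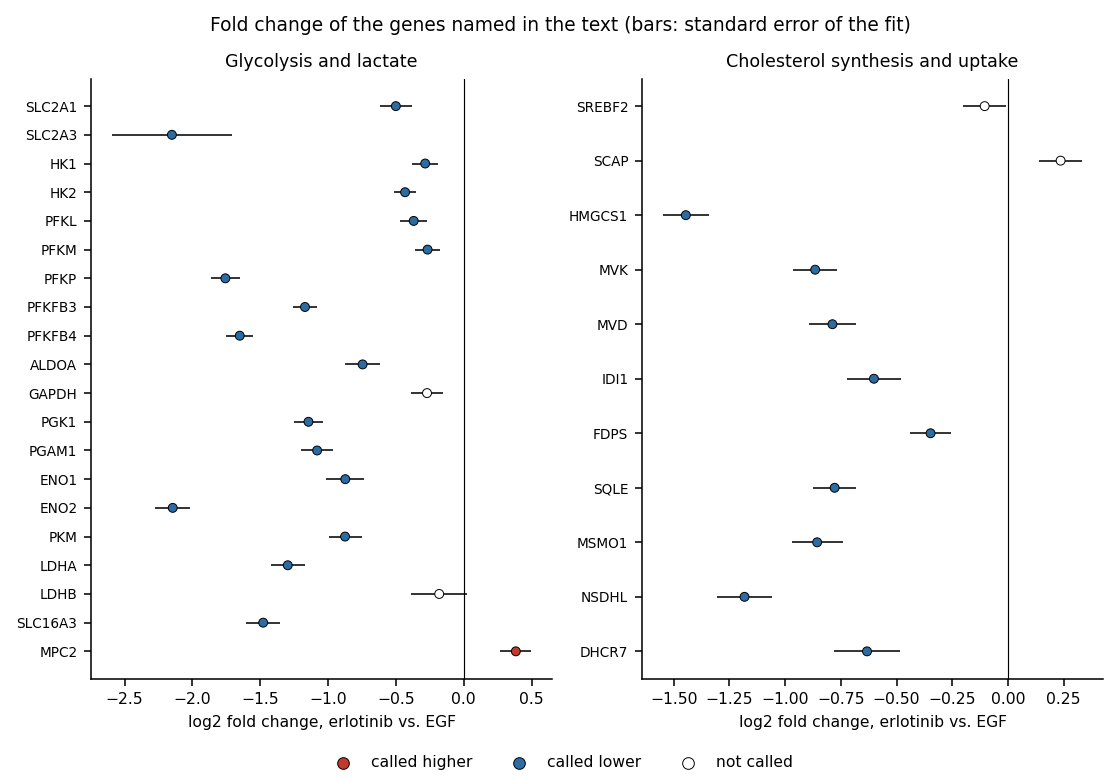
Log2 fold change ± SE of the fit for genes named in the text, of glycolysis and lactate transport (left) and of cholesterol synthesis and uptake (right), in the order of the pathway from top to bottom. Blue points, called lower, lie left of 0 along both pathways. SLC2A3 (-2.15) and ENO2 (-2.14) lie farthest out in the left panel and HMGCS1 (-1.45) in the right panel.

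Fatty acid synthesis was mixed, 6 genes higher and 11 lower of 29. ACLY, which supplies cytosolic acetyl-CoA to both fatty acids and sterols, went from 759, 712 and 749 CPM with EGF to 329, 311 and 297 CPM with erlotinib, and LPIN1, which makes diacylglycerol, from 144, 125 and 146 CPM with EGF to 67.4, 69.8 and 68.8 CPM with erlotinib. SREBF1 rose from 148, 145 and 155 CPM with EGF to 251, 195 and 252 CPM with erlotinib, whereas FASN (-0.28 ± 0.11), SCD (-0.12 ± 0.1001) and ACACA (0.09 ± 0.09) were not called. Fatty acid oxidation had 8 genes higher and 3 lower of 27 (29.6% and 11.1%), beside 22.8% and 21.2% of all genes tested. Its median log2 fold change was 0.01 and changed sign in 8 of the alternatives described below. ACADSB and ACADS rose by 0.89 and 0.77 on the log2 scale, and the lowest of the 3 falls was -2.67. CPT1A, the gate of the mitochondrion, was not called (-0.198 ± 0.23). In nucleotide synthesis 12 genes were lower and 2 higher of 25. PFAS, PAICS and GART of the purine route fell (log2 fold changes -0.95, -0.69 and -0.65), and CTPS1, which makes CTP, went from 202, 215 and 203 CPM with EGF to 107, 107 and 107 CPM with erlotinib. RRM2B, the ribonucleotide reductase subunit of quiescent cells, rose by 0.63. Of the amino acid genes, PCK2 rose from 120.0, 136 and 117 CPM with EGF to 220.4, 198 and 221 CPM with erlotinib and ASS1, the argininosuccinate synthase, by 0.52, and VARS1 fell by 0.98. Of the 38 tested, 11 were higher and 7 lower (28.9% and 18.4%), beside 22.8% and 21.2% of all genes tested.

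Lysosome and autophagy genes had 22 of 54 members higher and 6 lower (median 0.22), but without EGF replicate 1 or EGF replicate 3 the number higher was 14. The protease CTSS went from 7.22, 8.54 and 9.08 CPM with EGF to 12.8, 19.5 and 19.3 CPM with erlotinib. The autophagy genes ATG13, ATG14 and ULK1 rose by 0.92, 0.84 and 0.52. TFEB, TFE3 and MITF, factors known to drive lysosome genes, fell (log2 fold changes -0.61, -0.34 and -0.73). CTSB, a lysosomal protease, went from 379, 445 and 374 CPM with EGF to 254, 232 and 225 CPM with erlotinib.

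In the cell cycle, the genes called lower were 11 of 28 tested G1 regulators, 21 of 49 DNA replication genes and 5 of 52 mitosis genes. Of the G1 regulators, 5 were higher. Cyclin D1 (CCND1) went from 203, 178 and 197 CPM with EGF to 33.7, 36.9 and 37.8 CPM with erlotinib, and CCND3, CCNE1 and the phosphatase CDC25A fell (log2 fold changes -0.71, -0.92 and -0.84). The inhibitors of cyclin-dependent kinases CDKN2B, CDKN2C and CDKN1B (p27) rose by 0.92, 0.74 and 0.42, as did RBL2, a pocket protein of resting cells, by 0.55. CDKN1A (p21) fell by 0.24. CDKN2B had 51.6, 45.7 and 47.6 CPM with EGF and 91.9, 92.9 and 90.1 CPM with erlotinib, so the 6 libraries separated by group.

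DNA replication had 21 of 49 genes lower and 4 higher (median -0.22), and the number lower was 16 to 22 when a library was left out. CDC6, which loads the replicative helicase, went from 84.3, 84.4 and 75.1 CPM with EGF to 40.97, 43.02 and 41.2 CPM with erlotinib, and the helicase subunit MCM6, FEN1 and DTL fell (log2 fold changes -0.71, -0.81 and -0.596). CLSPN and UHRF1, read in the same phase, had log2 fold changes of -1.28 ± 0.25 and -1.19 ± 0.14, with EGF replicate 2 the lowest EGF library in both (28.7 and 43.1 CPM), still above every erlotinib library. TK1, RPA3, TIMELESS and CDT1 rose by 0.45, 0.64, 0.43 and 0.32, and PCNA (-0.18 ± 0.097) was not called. Of 52 mitosis genes 8 were higher and 5 lower, with a median of 0.01, fewer in each direction than the shares of all genes tested. TOP2A went from 264, 246 and 262 CPM with EGF to 330.4, 388 and 364 CPM with erlotinib, while MKI67 (-0.28 ± 0.26), CCNB1 (-0.23 ± 0.0996), CDK1 (0.16 ± 0.11) and PLK1 (-0.11 ± 0.11) were not called. The number of mitosis genes called higher ranged from 4 (without erlotinib replicate 3) to 11 (without erlotinib replicate 1) when a library was left out, and the number lower from 3 to 6.

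Promoter letters were read from RefSeq windows of 300 bases, 250 before to 50 after the start of each gene (GRCh38.p14), on both strands. The E2F motif TTTGGCGC or TTTCGCGC stood in 12 of 43 replication genes with a window, which is 27.9%, and in 1.18% of all 27305 windows and 1.97% of those of genes tested. Of the 12 genes, 7 were called lower and none higher, beside 13 lower and 3 higher of the 31 without it, so both kinds held genes that fell. Among all tested genes with a window, the motif stood in 1.89% of those called higher and 1.63% of those called lower. These letters are a description and not a site shown to be bound. Shown are 3 that fell, in the strand of the gene, with the motif in capitals.
CDC6 (chr17:40287875-40287904, plus strand): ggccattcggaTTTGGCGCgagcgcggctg
DTL (chr1:212035729-212035758, plus strand): cgtgacgtcagTTTGGCGCggagtttggcg
MCM6 (chr2:135876577-135876606, minus strand): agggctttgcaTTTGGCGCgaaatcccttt

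Genes of cell death went both ways. The pro-apoptotic BH3-only genes BMF, BCL2L11 (BIM) and HRK rose. BMF went from 7.14, 6.13 and 8.01 CPM with EGF to 25.5, 25.6 and 26.1 CPM with erlotinib and BCL2L11 from 21.3, 22.5 and 24.02 CPM with EGF to 43.7, 56.1 and 49.9 CPM with erlotinib, with no overlap between groups, and HRK rose by 1.26 on the log2 scale. BID, BAX and BAK1, also pro-apoptotic, fell (log2 fold changes -0.68, -0.404 and -0.39), and the survival genes BCL2 and BCL2L1 did so as well (-0.63 and -0.29). MCL1 was not called (0.16 ± 0.09). TNFSF10, which encodes the death ligand TRAIL, went from 29.6, 23.7 and 26.9 CPM with EGF to 61.2, 82.5 and 75.2 CPM with erlotinib, while its receptors TNFRSF10A and TNFRSF10B fell (log2 fold changes -1.57 and -0.77) and the decoy TNFRSF10D (-1.14).

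Among the differentiation genes, keratins of basal and wounded epithelium fell. Of 19 basal keratins and anchoring proteins 12 were lower and 3 higher (median -0.69). KRT6A, a keratin of wound edges, went from 572, 782 and 561 CPM with EGF to 37.2, 28.2 and 26.6 CPM with erlotinib, KRT17, of the same setting, from 1720.1, 2361 and 1615 CPM with EGF to 763, 614 and 656 CPM with erlotinib and KRT5, of basal cells, from 3876, 5012 and 3737 CPM with EGF to 2091, 1639.7 and 1635 CPM with erlotinib. EGF replicate 2 was the highest library for all 3 genes, and without any 1 library each stayed called lower. KRT14, the partner of KRT5, fell by 0.72 on the log2 scale, and LAMB3, a chain of the anchoring protein laminin, had a log2 fold change of -0.86. KRT15 and KRT16 went the other way, KRT15 from 38.2, 36.9 and 38.05 CPM with EGF to 53.6, 52.8 and 62.3 CPM with erlotinib and KRT16 from 137, 173 and 130.2 CPM with EGF to 225, 191 and 205 CPM with erlotinib. TP63, the factor of the basal layer, was not called (-0.43 ± 0.37).

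Cornified envelope and squamous genes, which build the upper layers of stratified epithelium, were called lower in 24 of 34 tested and higher in 3 (median -0.78). SPRR1B, a small proline-rich precursor of the envelope, went from 4.86, 4.57 and 5.02 CPM with EGF to 0.675, 0.816 and 0.739 CPM with erlotinib, and the serpins SERPINB3 and SERPINB4, near-identical neighbours, had log2 fold changes of -3.14 ± 0.24 and -2.795 ± 0.17. IVL (involucrin), S100A2 and KLK10 fell (log2 fold changes -0.65, -1.23 and -1.18). TGM1, which crosslinks the envelope, rose from 17.8, 21.1 and 18.05 CPM with EGF to 35.7, 30.7 and 30.001 CPM with erlotinib, and DSC2, a desmosomal cadherin, by 0.58. FLG had 0 to 4 counts per library and LORICRIN none, so changes of these 2 genes were not detectable at this depth.

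The AP-1 motif TGACTCA stood in 6 of the 23 squamous genes with a promoter window (26.1%), in 4.92% of all windows and in 3.29% of those of genes tested. All 6 (IVL, SPRR1A, SPRR1B, SPRR3, SBSN and S100A2) were called lower, and their median log2 fold change was -1.70, and of the 17 others 11 were lower and 2 higher, with a median of -0.52. Over all tested genes with a window, the motif stood in 3.45% of those called higher and 3.84% of those called lower. The 4 stretches below are shown because they hold the motif, or its reverse complement TGAGTCA, in capitals.
SPRR1B (chr1:153031050-153031079, plus strand): catcacaaaagtTGAGTCAacaggtgggtg
SPRR3 (chr1:153001567-153001596, plus strand): aagggtggacagTGAGTCAggcccaggtga
IVL (chr1:152908411-152908440, plus strand): agatgcctgtggTGAGTCAggaaggggtta
S100A2 (chr1:153565879-153565908, minus strand): aggagtgggctgTGACTCAcaggcatgtca

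**Figure D5:**
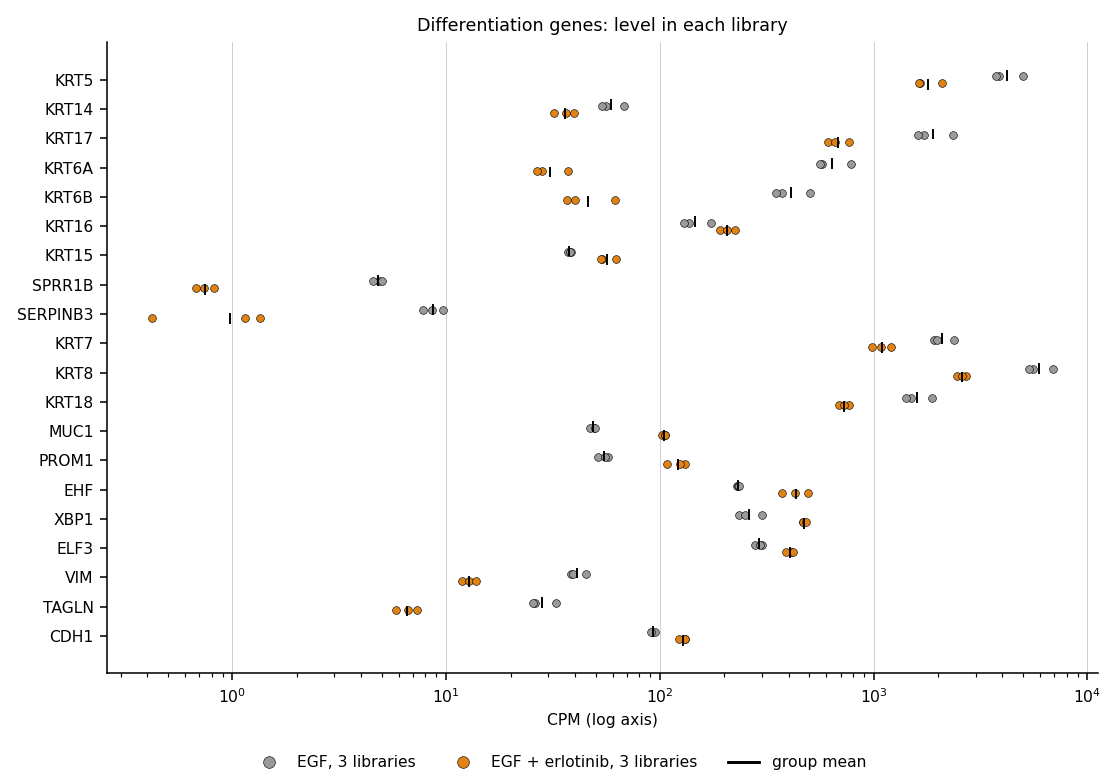
CPM in each library (points, log axis) of 20 genes of basal, squamous, luminal and mesenchymal differentiation, grey for EGF and orange for erlotinib, with ticks for the group means. The keratins from KRT5 to KRT6B, KRT7, KRT8 and KRT18 lie lower with erlotinib, whereas KRT15, KRT16, MUC1, PROM1, EHF, XBP1, ELF3 and CDH1 lie higher.

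Luminal and simple-epithelial genes went both ways, 8 higher and 7 lower of 23. The simple keratins KRT8, KRT18 and KRT7 fell (log2 fold changes -1.202, -1.14 and -0.94). The mucin MUC1 went from 49.3, 47.3 and 49.9 CPM with EGF to 103, 106 and 105 CPM with erlotinib and PROM1, a protein of membrane protrusions, from 56.9, 51.5 and 55.2 CPM with EGF to 108, 130.4 and 124 CPM with erlotinib. EHF and ELF3, ETS factors of epithelium, rose by 0.898 and 0.48, and ELF5, a factor of the alveolar lineage, by 1.51, while GATA3, of luminal cells, fell by 0.36. Of the mammary secretory list, 3 genes were higher and 3 lower of 9, with SLPI up by 0.601 and XDH, an enzyme of purine breakdown that is also needed for the milk fat globule, from 23.6, 26.7 and 23.5 CPM with EGF to 3.87, 3.47 and 3.31 CPM with erlotinib. The epithelial-mesenchymal list had 9 lower and 1 higher of 20. VIM (vimentin) went from 38.4, 44.9 and 39.04 CPM with EGF to 11.8, 12.8 and 13.7 CPM with erlotinib and TAGLN, of contractile cells, from 26.1, 32.7 and 25.5 CPM with EGF to 5.81, 6.61 and 7.32 CPM with erlotinib, though 47.8% of the exon bases of TAGLN were shared with another gene. CDH1 (E-cadherin) was the member that rose, from 91.9, 94.7 and 90.8 CPM with EGF to 132, 131 and 123 CPM with erlotinib. Of the Notch and Wnt genes, NOTCH3 rose from 708, 570.0 and 690.1 CPM with EGF to 1018, 837 and 1055 CPM with erlotinib and SOX9 and TCF7 fell (log2 fold changes -0.84 and -1.25).

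Over the 7 lists of receptors, 49 of 178 tested genes were higher and 61 lower. Among other receptor tyrosine kinases, 13 of 24 were lower and 4 higher. AXL, a receptor linked with resistance to EGFR inhibitors, went from 2.65, 2.86 and 2.36 CPM with EGF to 1.06, 0.897 and 0.668 CPM with erlotinib, and MET and MST1R fell (log2 fold changes -0.63 and -0.82). FGFR2 and KDR rose by 0.43 and 0.61, and DDR1, a collagen receptor, went from 1008, 943 and 965 CPM with EGF to 1299, 1166 and 1283 CPM with erlotinib. EPHA2, a receptor of cell contact, went from 53.02, 46.9 and 49.9 CPM with EGF to 12.3, 9.297 and 12.1 CPM with erlotinib, while its ligand EFNA1 rose by 0.601.

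Integrins, receptors of the matrix, had 6 of 13 genes lower and 2 higher, or 1 higher without EGF replicate 1. ITGA5 went from 19.5, 19.8 and 17.2 CPM with EGF to 5.52, 6.65 and 5.803 CPM with erlotinib and ITGB5, ITGA3 and ITGA2 fell (log2 fold changes -1.15, -0.93 and -0.804), but ITGB6, which pairs with ITGAV in epithelium, rose from 69.9, 65.1 and 70.7 CPM with EGF to 111, 151 and 144 CPM with erlotinib. Cytokine and TGF-beta receptors had 15 in each direction of 47. IL7R and IFNGR2 fell (log2 fold changes -1.68 and -1.54), whereas PRLR, the prolactin receptor, went from 41.3, 41.1 and 42.4 CPM with EGF to 66.7, 87.9 and 69.5 CPM with erlotinib and LIFR, whose ligand LIF fell, rose by 0.66. IL1RL1, the receptor of interleukin 33, had 47, 58 and 35 counts with EGF and 0 or 1 with erlotinib, which is at least 17.0-fold lower at the floor of 3 counts in each erlotinib library.

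G protein-coupled receptors had 15 higher and 15 lower of 48. OXTR, the oxytocin receptor, went from 7.9998, 8.13 and 8.01 CPM with EGF to 2.85, 2.16 and 1.83 CPM with erlotinib, and the orphan receptors GPRC5B and GPRC5C rose by 0.95 and 0.99 on the log2 scale. Of 25 nuclear receptors 6 were higher and 5 lower (24% and 20%), close to the 22.8% and 21.2% of all genes tested. NR1D2 (REV-ERB beta), a repressor of the circadian clock, went from 40.1, 43.2 and 39.2 CPM with EGF to 89.2, 120.5 and 103 CPM with erlotinib, and VDR and NR2F1 fell (log2 fold changes -0.56 and -1.92). The glucocorticoid receptor NR3C1 was not called (0.1999 ± 0.11), and the xenobiotic receptors NR1I2 and NR1I3 had 0 to 10 counts per library.

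Over the 5 xenobiotic lists, 58 of 121 tested genes were higher and 17 lower. Of 8 tested genes tied to the aryl hydrocarbon receptor, 5 were higher (median 0.47) and none lower by edgeR, with 0 lower at an unadjusted p under 0.05 and 0 by DESeq2, and 1 was called lower without erlotinib replicate 2. CYP1B1, a P450 of estrogens and aromatic compounds, went from 93.02, 93.6 and 87.6 CPM with EGF to 377, 439 and 387 CPM with erlotinib (log2 fold change 2.13 ± 0.097, adjusted p = 1.83e-10) and the quinone reductase NQO1 from 142, 155 and 140.4 CPM with EGF to 219, 224 and 219.8 CPM with erlotinib. ALDH3A1, which oxidizes aromatic aldehydes, went from 0.571, 0.297 and 0.369 CPM with EGF to 9.45, 9.18 and 9.25 CPM with erlotinib. In none of these genes did the groups overlap. The receptor AHR (0.03 ± 0.12), its partner ARNT (0.05 ± 0.09) and TIPARP (-0.23 ± 0.11), a feedback target, were not called. AHRR, another feedback target, had 0 to 4 counts per library, and CYP1A2 had none with EGF and 6, 1 and 5 with erlotinib, too few to be tested.

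Of these 8 tested genes, 5 had a promoter window. The core of the element that the receptor binds, GCGTG, stood in 4 of the 5, beside 36.3% of all windows and 50.02% of those of genes tested. Among all tested genes with a window, it stood in 45.9% of those called higher and 52.9% of those called lower. Of the 4 genes with the motif, CYP1A1 and NQO1 were called higher and AHR and TIPARP were not called. The stretches of the 2 genes that rose are shown, with the motif or its reverse complement in capitals.
CYP1A1 (chr15:74725569-74725598, minus strand): tccagggaaggagGCGTGgccacacgtaca
NQO1 (chr16:69726543-69726572, minus strand): accgtgcactacaCACGCgactcccacaag

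Other oxidation and reduction enzymes had 28 of 46 genes higher and 5 lower (median 0.40). Of the CYP4 family of P450 enzymes, which hydroxylate fatty acids, CYP4B1 went from 4.204, 4.08 and 4.72 CPM with EGF to 27.1, 28.7 and 30.1 CPM with erlotinib, CYP4Z1 from 0.571, 0.743 and 0.443 CPM with EGF to 5.63, 7.46 and 7.98 CPM with erlotinib and CYP4F3 from 2.204, 0.965 and 1.77 CPM with EGF to 5.78, 7.58 and 7.14 CPM with erlotinib. EPHX2, an epoxide hydrolase, rose by 1.87 on the log2 scale and ALDH2, which clears acetaldehyde, by 1.41. AKR1C1, AKR1C2 and AKR1C3 had log2 fold changes of 1.04 ± 0.16, 1.13 ± 0.12 and 1.57 ± 0.32, with reads that near-identical copies could have shared. ALDH1A3, which makes retinoic acid, went from 194, 183 and 199 CPM with EGF to 104, 104 and 99.8 CPM with erlotinib (log2 fold change -0.898). CYP3A4, a main route of erlotinib oxidation in liver, had 0 or 1 count per library and CYP3A5 was not called (0.05 ± 0.32).

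Conjugation enzymes had 11 of 24 higher and 3 lower, but 6 higher without EGF replicate 3. NNMT, a methyltransferase of nicotinamide, went from 20.3, 22.7 and 20.3 CPM with EGF to 39.4, 37.6 and 42.9 CPM with erlotinib, and GSTZ1 and GSTA4 rose by 0.91 and 0.75 on the log2 scale, while GSTO1 fell (log2 fold change -0.54). NRF2 antioxidant genes had 11 of 25 higher and 1 lower, or 2 lower without EGF replicate 1 or erlotinib replicate 1. HMOX1, which breaks down heme, went from 13.6, 13.6 and 12.9 CPM with EGF to 27.1, 23.9 and 30.5 CPM with erlotinib and the cystine carrier SLC7A11 from 21.7, 17.7 and 20.6 CPM with EGF to 31.1, 42.9 and 38.7 CPM with erlotinib. NFE2L2 (NRF2) and its repressor KEAP1 both rose, by 0.82 and 0.56, TXN fell by 0.42, and TXNRD1 (-0.01 ± 0.09) was not called. Of the drug transporters, 3 of 18 were higher and 8 lower. SLCO2A1, a prostaglandin carrier, went from 23.02, 25.4 and 24.4 CPM with EGF to 3.17, 1.92 and 2.603 CPM with erlotinib, SLCO4A1, a carrier of organic anions, from 20.6, 22.5 and 21.9 CPM with EGF to 3.404, 2.81 and 2.39 CPM with erlotinib and SLC15A2, a peptide carrier, from 4.29, 4.46 and 4.502 CPM with EGF to 25.6, 34.9 and 30.2 CPM with erlotinib. Of the efflux pumps for which erlotinib is a known substrate, ABCB1 was not called (0.23 ± 0.26) and ABCG2 had no counts in any library.

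The erlotinib libraries were also set against those of EGF with cSNX1.3, at a dose of 10 μM against 15 μM, in the same fit. Of the genes tested, 56.1% were called, 28.5% higher with erlotinib and 27.6% lower. The drugs differed in many members of the lists: erlotinib was lower than cSNX1.3 in 53 of 58 ribosome biogenesis genes, 22 of 26 glycolysis genes and 20 of 27 cholesterol genes, and higher in 29 of 46 oxidation and reduction enzymes. Of 52 mitosis genes, 25 were higher with erlotinib than with cSNX1.3 and 4 lower. CYP1A1 was at 0.217 ± 0.00917 CPM with cSNX1.3, 0.273 ± 0.169 CPM with EGF and 8.12 ± 0.811 CPM with erlotinib (SD, n = 3 each), and the direct log2 fold change was 5.197 (adjusted p = 6.24e-10). EGR1 was at 40.8 ± 5.62 CPM with cSNX1.3, 137 ± 32.3 CPM with EGF and 10.6 ± 3.29 CPM with erlotinib, with a direct log2 fold change of -1.95 (adjusted p = 2.63e-05). TAGLN, at 7.65 ± 0.324 CPM with cSNX1.3, had a direct log2 fold change of -0.22 that was not called (adjusted p = 0.186).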

How the data were processed

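The authors trimmed the reads with TrimGalore, aligned them to GRCh38 with STAR, used featureCounts, ignoring strand, to count read pairs for each Ensembl gene and deposited the raw counts, so reads of overlapping genes on opposite strands cannot be told apart. The annotation release they used is not given in the sources used here. Of 61552 gene IDs, 61399 had a name and coordinates in GENCODE 44, and 153 had none there.

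The 9 libraries of the drug experiment (EGF, cSNX1.3 and erlotinib, 3 each, grouped by the sample titles) were fitted together with edgeR 4.0.16 in R 4.3.3, with TMM scaling, filterByExpr by group and a robust quasi-likelihood test, with Benjamini-Hochberg adjustment of the p-values over all 15738 genes tested. The test was also run on counts simulated with the fitted spread of these data. Far fewer genes changed there than were called here, so that run cannot check these calls or their scaling. CPM are on the TMM scale, SDs are over libraries and SEs come from the fit. Where no library of a group had over 3 counts, the group was taken to be at the floor, which covers counting error only. Genes with names on 47 lists (1472 genes, 1470 found in the table, 1249 tested) were described by counts and medians without a set test. The comparison, the lists and most names were chosen with earlier results of these data known, so they are not independent support for any direction.

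Genes named were the 15 largest rises and falls among called protein-coding genes that averaged 1 CPM or more and whose groups do not overlap, the 8 largest rises and falls of mean CPM, in each list the 3 called genes with the largest rise and fall, and members named for their role whether or not they were called; some genes that the rule selects are not reported here. More than 30% of the exon bases of AHR, ALDH1A3, ALDOA, BCL2L1, CA9, HMGCS1, LDHB, LRIG1, MXD3, NFE2L2, PDK2, SELENOP, SERPINB3 and TAGLN are shared with another gene. Alternatives were DESeq2 size factors, fits of the 6 libraries alone or of all 15, a block for the replicate number, the omission of each library in turn, a limit of 0.01 on the adjusted p, no filter, a filter that asks for 10 counts in every library, and a test with DESeq2 1.42.0. Motifs were searched by their letters on both strands in 27305 RefSeq promoter windows, which cover 11421 of the genes tested. The motifs of the antioxidant element (TGACNNNGC, 5 of 18 NRF2 windows), the sterol element (TCACNCCAC, 1 of 20 cholesterol windows) and ETS factors (CCGGAAGT, 1 of 25 feedback and ETS windows) were searched as well.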

Additional observations from a re-analysis of the deposited data

How the results depend on the processing

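The count of genes called was 6932 and ranged from 4789 (adjusted p under 0.01) to 7718 (all 15 libraries), and from 5661 (without EGF replicate 1) to 6773 (without EGF replicate 2) when a library was left out. None of these calls turned to the other direction under an alternative, and the share called higher stayed between 49.2% and 52.8%. TMM and DESeq2 size factors both place the median gene near 0, so this share cannot show a change in total RNA. Called genes with an absolute log2 fold change over 1 numbered 1782, and 1051 when every library had to hold 10 or more counts, a filter that leaves out genes near 0 in 1 group. Metabolism genes called higher numbered 64, and 42 at an adjusted p under 0.01. The other counts over themes stayed within 1.5 times their value. Of 249 genes named by rule, none changed direction, and between 0 and 19 per alternative were no longer called. Same-numbered libraries of the groups had correlations of their deviations of -0.10, -0.02 and 0.11, and differently numbered ones of -0.17 to 0.18. With 3 libraries per group these values cannot decide whether the numbers pair the samples. With the replicate number as a block 6707 genes were called. Median log2 fold changes changed sign in some alternatives for 12 lists, among them mitosis, ribosomal proteins, the MYC network and the fibroblast markers (from -1.41 to 0.02), and DESeq2's size factors moved the median of all genes by 0.01. Genes under 1 CPM were called less often (28.3%) than all genes.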

Other observations

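Genes of long non-coding RNA (lncRNA) were called higher more often than lower. Of 1905 tested, 32.9% were called higher with erlotinib and 8.50% lower, with a median log2 fold change of 0.39, beside 22.0% and 23.8% of the protein-coding genes, with a median of -0.02. At a mean of 1 to 10 CPM the shares were 40.6% higher and 8.86% lower for 835 lncRNA genes and 24.6% and 19.8% for 2718 protein-coding genes. Among 1329 lncRNA genes with under 10% of their exon bases shared with another gene, 468 were higher and 111 lower. Across the alternatives at an adjusted p under 0.05, calls higher outnumbered calls lower in each, with between 380 and 707 higher and between 98 and 197 lower. The share of all counts that fell on lncRNA genes was 0.658% to 0.754% in the EGF libraries and 0.962% to 0.981% in the erlotinib libraries. Reads were not assigned by strand, and the part of transcription from neighbouring or opposite genes in this result was not tested.

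A few genes of the POU2F3 program, known from tuft cells, the chemosensory cells of hollow organs, were higher. These genes, other than POU2AF1, were chosen after their values were seen. POU2F3, the factor itself, was at 3.63, 2.75 and 3.43 CPM with EGF and 17.9, 16.5 and 15.6 CPM with erlotinib (log2 fold change 2.35 ± 0.15, edgeR adjusted p = 6.97e-09). Its coactivators POU2AF2 and POU2AF3 had log2 fold changes of 2.46 ± 0.17 and 1.64 ± 0.15, and COLCA1, their neighbour, 3.48 ± 0.27. POU2AF1, POU2AF2, POU2AF3 and COLCA1 lie side by side on chromosome 11 (GRCh38, from 111245725, the start of POU2AF2, to 111455630, the end of POU2AF1). The groups did not overlap for any of these genes. POU2AF3 and COLCA1 lie on opposite strands over some of the same bases, and 21.5% of the exon bases of POU2AF3 are shared with another gene. Strand was ignored in counting, so the values of POU2AF3 and COLCA1 may not be independent. ALOX5 and PTGS1, enzymes of lipid mediators that tuft cells make, had log2 fold changes of 0.89 ± 0.11 and 0.79 ± 0.19. Of other tuft cell genes, ASCL2 (-0.33 ± 0.39) and AVIL (-0.14 ± 0.23) were not called, and GFI1B, TRPM5, BMX, SH2D6, CHAT, IL25 and HPGDS had 0 to 2 counts in each library.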
